A study of Mus musculus with 9 samples.

Results

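The immunity-related GTPases (IRGs) of the mouse were followed through 4 groups of sorted intestinal cells. The members were taken by gene symbol: Igtp, Irgm1, Irgm2, Iigp1, Ifi47, Tgtp1 and Tgtp2, which are 7 of the 24421 genes in the count tables. All 7 passed the filter on low counts, as did 11577 genes in all. The members had been proposed because they stood high in cells without IκBα, so every KO against WT value of a member below is a description of how it was chosen and carries no test. What was tested for them is the difference between the sorts within a genotype, a contrast the rule did not use. Those comparisons use the same libraries, and earlier results of these data were known when the members were chosen.

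The study took the intestine of C57BL/6 mice at postnatal day 6, whose freshly dissociated cells were sorted with an APC-coupled antibody labelled as directed against human EphB2. EphB2, a receptor tyrosine kinase, is strongest on cells at the bottom of the crypt. Of the 9 libraries, 2 were of wild-type (WT) EphB2-positive cells and 2 of WT EphB2-negative cells. The genotype labelled IkBa KO (KO) gave 3 EphB2-positive and 2 EphB2-negative libraries. IκBα, the product of Nfkbia, holds NF-κB dimers in the cytoplasm. The labels name no Cre driver or allele. They do not tie replicates to different animals, and the p-values therefore reflect variation among libraries that may be technical.

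IRGs are large GTPases that interferons, above all interferon gamma, induce in many mouse cell types. Interferon gamma binds a receptor made of Ifngr1 and Ifngr2, and signalling through the kinases Jak1 and Jak2 acts on genes with GAS elements and induces IRF1, which binds interferon-stimulated response elements (ISREs). The family has a regulatory arm and an effector arm. The regulators Irgm1, Irgm2 and Igtp (also called Irgm3) sit on the cell's own membranes and keep the effectors in an inactive, GDP-bound state, while effectors such as Iigp1 (Irga6), Tgtp1 and Tgtp2 (Irgb6) and Ifi47 (Irgd) load onto the vacuoles of intracellular parasites and bacteria. In the gut the family is known chiefly from infection with Toxoplasma and from the effect of Irgm1 on Paneth cells and on inflammation.

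The start-site sequences are shown because 4 members share an arrangement of motifs there. RefSeq windows (GRCm38.p6, 250 bases before to 50 after the start) were at hand for 6 of the 7 members, all on chromosome 11. The motifs searched, known from interferon promoters and read on both strands, were GAAANNGAAA (the ISRE core) and TTCNNNGAA (the GAS element, a palindrome), and the NF-κB motif by its usual degenerate letters. Capitals below mark the matches, and each stretch is given 5′ to 3′ on the gene's strand.
Igtp, chr11:58199481-58199555, plus strand: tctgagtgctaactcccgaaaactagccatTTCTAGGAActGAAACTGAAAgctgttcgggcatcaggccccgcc
Irgm2, chr11:58214872-58214952, plus strand: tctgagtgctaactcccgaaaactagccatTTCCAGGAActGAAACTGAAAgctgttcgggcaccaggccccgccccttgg
Tgtp1, chr11:48992284-48992364, minus strand: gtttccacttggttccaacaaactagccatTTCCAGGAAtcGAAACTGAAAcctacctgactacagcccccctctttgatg
Tgtp2, chr11:49064243-49064323, minus strand: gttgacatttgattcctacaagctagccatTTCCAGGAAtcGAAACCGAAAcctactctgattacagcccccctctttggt
Irgm1, chr11:48871428-48871457, minus strand: gtttcaaGAAATAGAAACCGAAActgattc

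Igtp, Irgm2, Tgtp1 and Tgtp2 each held a GAS match followed by an ISRE match, with 11 bases from the first base of one to the first base of the other in all 4. Over the 51 bases from 30 before the GAS match to the end of the ISRE match, Igtp and Irgm2 were identical at 50 and Tgtp1 and Tgtp2 at 44. Between those pairs 34 to 36 of the 51 bases were identical. Irgm1 had no GAS match and instead held 2 overlapping ISRE matches, in a stretch that a longer GENCODE transcript of the gene counts as first exon, which is why only 30 bases are shown. The window of Ifi47 held none of the 3 motifs as spelled, which says only that these letters are not in this window. An ISRE match was found in 5 of the 6 windows, against 3.44% of 32851 RefSeq windows of the same length. A GAS match and an ISRE match starting within 20 bases of each other were found in 4 of 6, against 0.131% of all windows, and 2 or more ISRE matches in 0.225%. The 4 windows are 2 closely alike pairs, and the arrangement is shown because it was found in them. No enrichment is read from these shares. The NF-κB motif had no match in the 6 windows and was present in 8.46% of all. A match is a run of letters and not a measured binding site.

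**Figure D1:**
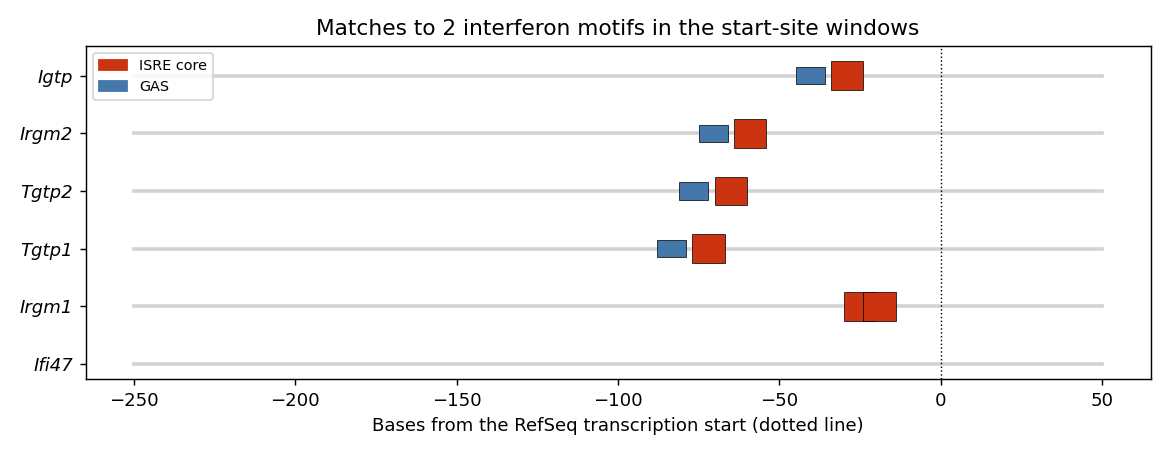
Matches to the ISRE core and the GAS element in the start-site windows of 6 IRG genes, with bases from the RefSeq start on the horizontal axis. In Igtp, Irgm2, Tgtp1 and Tgtp2 a GAS match lies just upstream of an ISRE match; Irgm1 has 2 overlapping ISRE matches and Ifi47 has neither.

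On GRCm38 (GENCODE M21), Irgm1 spans 48861968 to 48871683, Tgtp1 48985327 to 48994172 and Tgtp2 49057194 to 49064206 on the minus strand of chromosome 11, and Ifi47 spans 49076587 to 49096974 on the plus strand nearby. Igtp (58199556 to 58207591) and Irgm2 (58199618 to 58222782) form a further group on the plus strand of chromosome 11. Iigp1 is on chromosome 18, at 60376027 to 60392634. Tgtp1 and Tgtp2 are near-identical copies: of the 50-base words in their transcripts, 79.4% for Tgtp1 and 85.8% for Tgtp2 also occur in the other. How the counting divided such reads is not given in the sources used here, so each of those genes is uncertain alone and their sum is given beside them. In the other members 88.2% to 99.6% of the words occur in no other gene. Igtp and Irgm2 share 162 exonic bases through the first exon of one Irgm2 transcript, Ifi47 overlaps exons of Gm12188 and Olfr56 and Tgtp1 overlaps exons of Gm12185. The strand setting of the counting is not given either.

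The libraries held 1503972 to 2074076 reads in genes. Nfkbia had 58 and 163 reads in WT EphB2-positive, 47 and 114 in WT EphB2-negative and 0 in each of the 5 KO libraries. Ephb2 stood at 142 to 160.3 CPM (reads scaled by TMM to a common library size) in WT EphB2-positive and 171 to 183 in KO EphB2-positive cells, against 66.8 to 124.6 and 30.7 to 34.4 CPM in the EphB2-negative groups. The WT EphB2-negative replicates stand apart: their counts gave a chi-square of 24.2 per degree of freedom, where the 5 remaining pairs of replicates gave 1.93 to 4.32. Summed CPM of 11 pan-leukocyte markers was 132 in replicate 1 and 1133 in replicate 2 of that group. That sum was 1302 and 1595 in KO EphB2-negative, 63.1 and 65.3 in WT EphB2-positive and 92.1 to 112 in KO EphB2-positive libraries. In EphB2-positive libraries 6 to 9 of the 11 markers had 0 reads, most of the sum was Lcp1, and Ptprc, the pan-leukocyte phosphatase CD45, had 0 reads in both WT and 1 read in the 3 KO libraries together. Tyrobp and the T cell gene Cd3e had 0 reads in all 5. The 7 epithelial markers summed to between 6254 and 10076 CPM in every library. Absorptive enterocyte markers summed to 9574 CPM or more in each EphB2-negative library, to 1118 and 2387 CPM in WT EphB2-positive and to 365 to 457 CPM in KO EphB2-positive libraries. The WT EphB2-negative replicates differed in these markers too, at 9574 CPM in replicate 1 and 24044 CPM in replicate 2. Their crypt base stem cell markers summed to 1652 and 345 CPM, and Ephb2 stood at 124.6 and 66.8 CPM. Replicate 1 was thus the nearer of the pair to EphB2-positive cells in these values as well.

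In EphB2-positive cells every member stood higher in each KO library than in any WT library. Summed over the 7 members, the level was 51.3 and 73.2 CPM in WT and 535, 587 and 778 CPM in KO. The median log2 fold change of the members was 4.92, against -0.01 over all genes tested. The edgeR fit called all 7 higher in KO, beside 7.01% of all genes called higher. Non-overlap of the libraries held for 7 of 7 members, beside 26.9% of all genes. The members were chosen on this contrast, so nothing is read from these counts. Other cell type markers moved with genotype in this sort: of 8 absorptive enterocyte markers 5 fell in KO (edgeR, median log2 fold change -2.52), beside 8.07% of all genes. Crypt base stem cell markers summed to 3611 and 3887 CPM in WT and 1427 to 2462 CPM in KO, with 0 of 5 tested called. Most of that sum was Olfm4, at means of 3278 CPM in WT and 1605 CPM in KO. The part of these shifts in the members' values was not tested.

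Among the regulators, Igtp, whose product sits on the endoplasmic reticulum and lipid droplets, had 5.90 and 1.97 CPM in WT EphB2-positive cells and 126, 137 and 100.3 CPM in KO. Those are means of 3.93 ± 2.77 (SD, n = 2) and 121 ± 18.7 (SD, n = 3), a log2 fold change of 4.92 ± 0.37 (SE). The lowest KO library was far above the higher WT library, and the WT group rested on 16 reads. Irgm1, the Golgi and lysosome regulator of the family, had the highest WT level per length (below) and the smallest fold change. It had 36.0 and 48.6 CPM in WT and 143, 173 and 201 CPM in KO, a log2 fold change of 2.02 ± 0.23. Irgm2, the third regulator, had 2.96 and 5.40 CPM in WT and 54.0, 56.7 and 89.5 CPM in KO, a log2 fold change of 3.98 ± 0.39.

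Among the effectors, Iigp1, which disrupts the vacuole of Toxoplasma, was nearly unread in WT EphB2-positive cells. It had 2 reads in each WT library (0.98 and 0.99 CPM) and 43.4, 65.3 and 81.4 CPM in KO. The ratio from summed reads was 66.5, with a counting interval of 25.75 to 245. Ifi47 was the only effector with a WT level well above the floor of 3 reads, at 9.37 and 11.3 CPM, and had 53.0, 58.1 and 67.1 CPM in KO, a log2 fold change of 2.52 ± 0.28. Tgtp1 and Tgtp2, which bind the parasite vacuole early, had 1 read each in WT replicate 1 and none in replicate 2. In KO, Tgtp1 had 105, 132 and 221 reads and Tgtp2 had 90, 101 and 203. Their ratios, 336 (counting interval 59.9 to 13286) for Tgtp1 and 289 (51.5 to 11433) for Tgtp2, rest on that 1 WT read. Summed, the pair was at 0.98 and 0 CPM in WT and 120, 130 and 202 CPM in KO. Intervals cover counting error only, since the cDNA was PCR-amplified and carried no molecular identifiers.

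**Figure D2:**
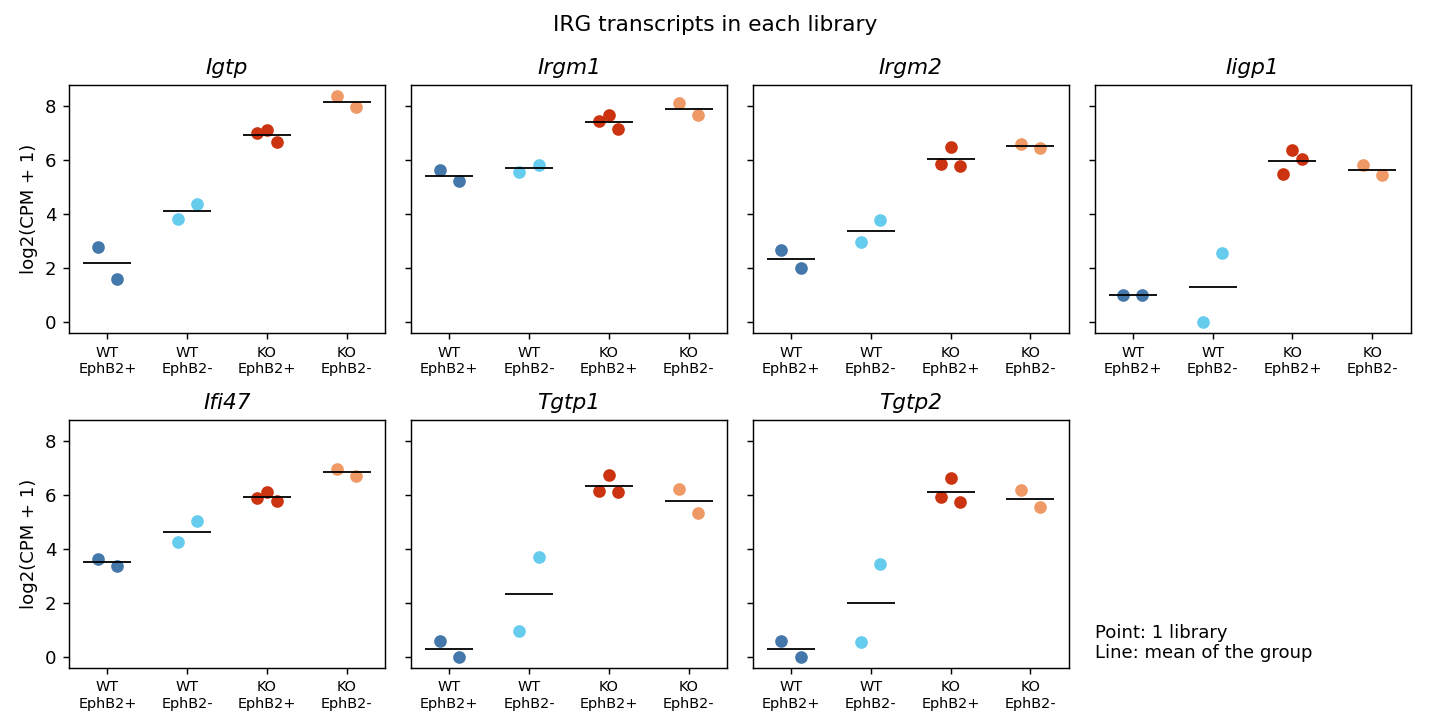
log2(CPM + 1) of each IRG gene in each of the 9 libraries, 1 point per library, coloured by group, with a line at each group's mean. Every KO library lies above every WT library of the same sort for all 7 genes, and WT EphB2-negative replicate 2 lies above replicate 1 for all 7.

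In EphB2-negative cells the KO libraries again lay above the WT libraries for all 7 members, beside 28.7% of all genes. The 7 summed to 85.4 and 147 CPM in WT and to 767 and 1026 CPM in KO. All 7 were called higher, beside 13.7% of all genes, and the median log2 fold change was 3.23, against -0.09 over all genes. Nothing is read from these counts either.

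Igtp had 13.2 and 19.8 CPM in WT and 248 and 330.2 CPM in KO (log2 fold change 4.13 ± 0.32). Irgm1 had 46.1 and 56.1 CPM in WT and 202 and 275 CPM in KO (2.22 ± 0.24 on the log2 scale), nearly the difference it had in EphB2-positive cells. Irgm2 had 6.85 and 12.6 CPM in WT and 85.3 and 96.6 CPM in KO, a log2 fold change of 3.23 ± 0.36. For all 3 regulators the WT libraries lay close together beside the gap to KO.

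Of the effectors, Iigp1, Tgtp1 and Tgtp2 differed more between the WT libraries than the regulators did. Iigp1 had 0 and 4.84 CPM in WT replicates 1 and 2 and 42.7 and 55.7 CPM in KO, a log2 fold change of 4.34 ± 0.69. Ifi47 had 17.8 and 31.9 CPM in WT and 104 and 125 CPM in KO (2.20 ± 0.27 on the log2 scale). Tgtp1 had 2 and 25 reads in WT and 114 and 62 in KO, and Tgtp2 had 1 and 20 reads in WT and 111 and 72 in KO. Their log2 fold changes were 3.12 ± 0.72 and 3.54 ± 0.74, and 3.32 ± 0.80 for their sum. WT replicate 2 was the higher WT library for all 7 members and was also the one with the higher leukocyte sum. It had the higher enterocyte sum and the lower crypt base stem cell sum as well. The part of these differences in the members' values was not tested. Without WT EphB2-negative replicate 1 the log2 fold change of Tgtp1 was 2.21, of Tgtp2 2.59, of Iigp1 3.33 and of Igtp 3.86. Without replicate 2 instead it was 5.84 for Tgtp1, 6.80 for Tgtp2 and 9.52 for Iigp1, which then rest on 2 reads or fewer in the remaining WT library. With a leukocyte covariate (the mean log2 CPM of those markers) the log2 fold changes were 3.78 for Igtp, 2.50 for Iigp1 and 1.70 for Tgtp1 in EphB2-negative cells, and 4.89 for Igtp, 5.61 for Iigp1 and 7.85 for Tgtp1 in EphB2-positive cells. Within groups the covariate varied mainly between WT EphB2-negative replicates 1 and 2, at 2.68 and 6.10. The values with the covariate therefore rest largely on the difference between those libraries.

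The genotype difference in EphB2-positive cells minus that in EphB2-negative cells was 0.79 ± 0.51 on the log2 scale for Igtp, -0.20 ± 0.32 for Irgm1, 0.75 ± 0.56 for Irgm2 and 0.31 ± 0.38 for Ifi47. It was 1.58 ± 1.31 for Iigp1, 4.90 ± 1.73 for Tgtp1 and 4.27 ± 1.81 for Tgtp2. The Tgtp values rest on 1 read each in WT EphB2-positive cells and on 27 and 21 reads in WT EphB2-negative cells, nearly all of them in replicate 2. These differences contain the genotype contrast and are given without a test. Of all genes 12.4% were called for this difference.

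**Figure D3:**
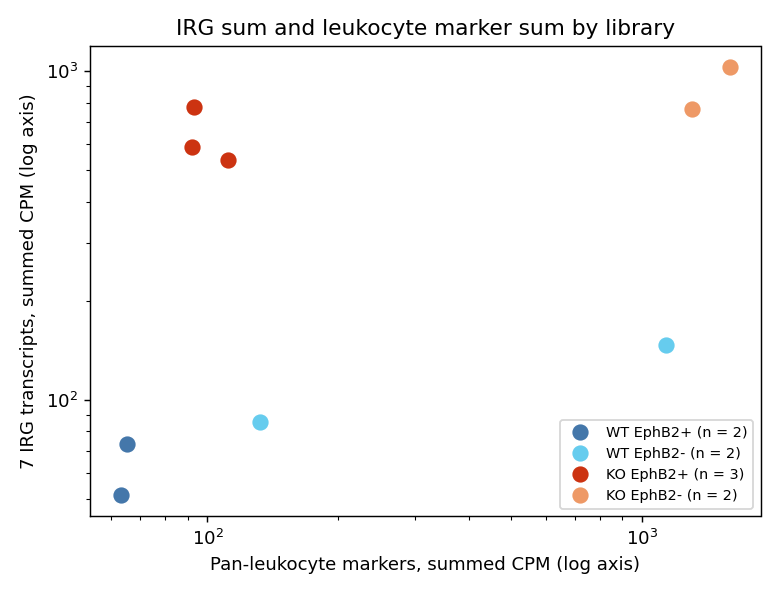
Summed CPM of the 7 IRG genes against summed CPM of 11 pan-leukocyte markers, both on log axes, 1 point per library. KO EphB2-positive libraries reach 535 to 778 CPM of IRG transcripts at a leukocyte sum of 92.1 to 112, and WT EphB2-negative replicate 2 has 147 at a leukocyte sum of 1133.

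Setting the libraries side by side, KO EphB2-positive cells had an IRG sum of 633 ± 128 CPM (SD, n = 3) with few leukocyte reads. WT EphB2-negative replicate 2 had an IRG sum of 147 CPM with a pan-leukocyte sum of 1133 CPM. In KO EphB2-negative cells, with leukocyte sums of 1302 and 1595 CPM, the IRG sum was 897 ± 183 CPM (SD, n = 2). T and NK cell markers summed to at most 2.67 CPM in any EphB2-positive library, to 19.6 and 653 in WT and to 416 and 1137 in KO EphB2-negative libraries. Macrophage and neutrophil markers summed to 19.2 and 134.5 CPM in WT and to 206 and 951 CPM in KO EphB2-negative libraries. Of 8 tested, 2 were called higher in KO, beside 13.7% of all genes. In that comparison 0 of 11 pan-leukocyte, 0 of 8 T and NK cell and 0 of 3 B cell markers were called. The marker sums differed between these libraries, so their leukocyte content was not matched. Within groups the members moved together: KO EphB2-positive replicate 2 had the highest value of its group for 7 of 7 members, and KO EphB2-negative replicate 1 for 7 of 7.

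Between the sorts, a contrast the rule did not use, 2 of the 7 members were called in KO cells. The members were not tested against each other. Igtp and Ifi47 were lower in EphB2-positive than in EphB2-negative KO cells, and the other members did not pass the test. Igtp stood at 121 ± 18.7 CPM (SD, n = 3) against 289 ± 58.3 (SD, n = 2), and its libraries did not overlap. It fell by 1.26 on the log2 scale (SE 0.24, edgeR adjusted p = 0.0018). Ifi47 stood at 59.4 ± 7.18 CPM against 114 ± 14.8 and fell by 0.94 (SE 0.22, edgeR adjusted p = 0.0054; 0.057 without KO EphB2-negative replicate 1). Of the 7 members 2 were called lower, beside 29.2% of all genes called lower and 26.4% called higher, so the members' share is near the background.

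The other 5 did not pass the test in KO cells. Irgm1 had a log2 difference of -0.47 ± 0.20 (edgeR adjusted p = 0.071), although each KO EphB2-negative library was above each EphB2-positive one, and Irgm2 had -0.44 ± 0.27 (edgeR adjusted p = 0.19). The values of Iigp1 and the Tgtp pair lay on the other side of 0. Iigp1 stood at 63.4 ± 19.1 CPM in EphB2-positive and 49.2 ± 9.19 CPM in EphB2-negative KO cells, a log2 difference of 0.37 ± 0.44 (edgeR adjusted p = 0.49). Tgtp1 differed by 0.53 ± 0.52 (edgeR adjusted p = 0.41), Tgtp2 by 0.26 ± 0.53 (edgeR adjusted p = 0.70) and their sum by 0.40 ± 0.61 (edgeR adjusted p = 0.60). Non-overlap with EphB2-negative above EphB2-positive held for Igtp, Irgm1 and Ifi47, 3 of 7, beside 39.5% of all genes. The leukocyte sums were 92.1 to 112 CPM in the EphB2-positive and 1302 and 1595 CPM in the EphB2-negative KO libraries. With the leukocyte covariate, the Igtp difference was -0.30 (edgeR adjusted p = 0.85) and that of Ifi47 0.43 (edgeR adjusted p = 0.67). That fit called other members instead, since 2 to 3 were called under each alternative other than leaving out 1 library. The covariate was 0.83 to 1.13 in KO EphB2-positive and 6.43 and 6.65 in KO EphB2-negative libraries. It nearly follows the sort there, so this fit cannot tell the sort from the covariate. In bulk samples fewer cells of a type and less RNA per cell cannot be told apart.

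In WT cells the order was the same for every member, with EphB2-negative means above EphB2-positive means, but few reads stood behind it. Igtp was at 3.93 ± 2.77 CPM in EphB2-positive and 16.5 ± 4.67 CPM in EphB2-negative cells (SD, n = 2 each) and fell by 2.05 on the log2 scale (SE 0.44, edgeR adjusted p = 0.038). It was the 1 of 7 members called lower, beside 3.77% of all genes, while 0.656% of all genes were called higher. Its call was lost when any one library other than WT EphB2-negative replicate 1 was left out, with log2 values from -3.01 to -1.48 and adjusted p up to 0.19. Ifi47 differed by -1.26 ± 0.31 (edgeR adjusted p = 0.052), Irgm2 by -1.20 ± 0.49 (edgeR adjusted p = 0.15) and Irgm1 by -0.27 ± 0.25 (edgeR adjusted p = 0.49). Irgm1 was thus the member nearest to level across the WT sorts. Tgtp1 differed by -4.37 ± 1.65 (edgeR adjusted p = 0.14), Tgtp2 by -4.01 ± 1.72 (edgeR adjusted p = 0.17) and Iigp1 by -1.21 ± 1.23 (edgeR adjusted p = 0.55). Non-overlap held for 4 of 7, beside 28% of all genes. Without WT EphB2-negative replicate 1, the one of that pair with the lower leukocyte sum, 5 members were called lower, with Irgm2 at -1.57, Ifi47 at -1.62, Tgtp1 at -5.28 and Tgtp2 at -4.96 beside Igtp at -2.31. That fit called 5009 genes in all, in either direction, against 513 with every library. It leaves 1 WT EphB2-negative library, assumed to vary like the other groups, and for Tgtp1 and Tgtp2 sets it against 1 read each in WT EphB2-positive cells. The replicate left out also had the higher crypt base stem cell sum and the higher Ephb2 level of that pair.

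**Figure D4:**
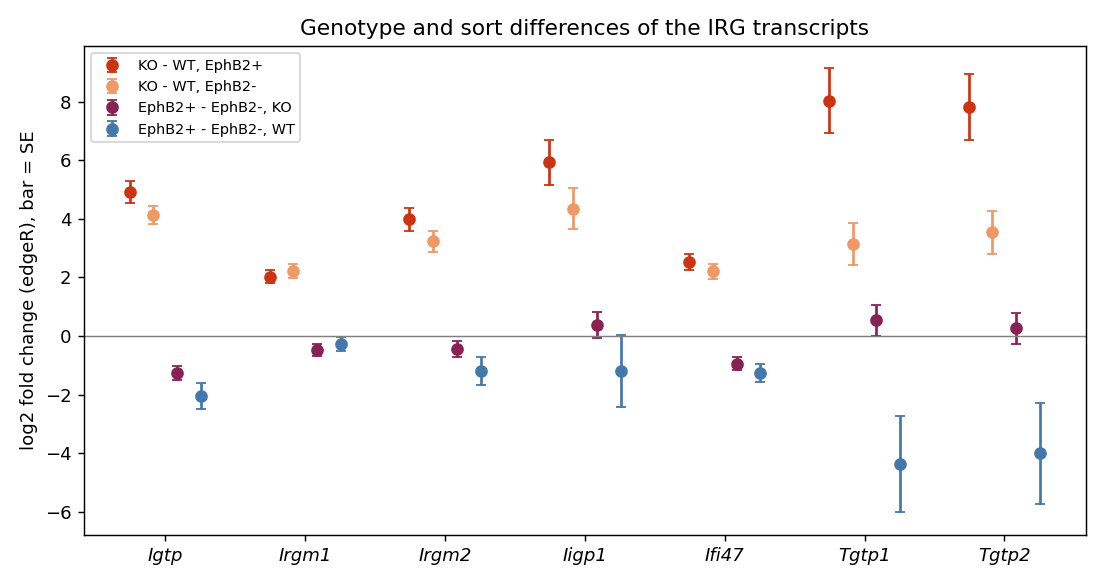
log2 fold changes of the 7 IRG genes in 4 comparisons, with bars of 1 SE. KO minus WT values, shown as a description, run from 2.02 to 8.03 in EphB2-positive and from 2.20 to 4.34 in EphB2-negative cells, and the sort differences lie between -4.37 and 0.53.

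Divided by the length of their exons, the members can be ordered within a group. In KO EphB2-positive cells Igtp led at 59.8 ± 9.26 CPM per kilobase (SD, n = 3), above all others. Irgm1 (29.6 ± 4.99), Tgtp1 (25.3 ± 6.54), Ifi47 (24.0 ± 2.91), Tgtp2 (23.7 ± 8.11) and Irgm2 (18.1 ± 5.36) followed, with neighbours in that order no further apart than the larger of their SDs. Iigp1 was lowest at 10.9 ± 3.28. With the longest annotated transcript as the length, Irgm1 came to 44.9 and Iigp1 to 20.3 CPM per kilobase, and Irgm2, at 18.9, took the lowest place. In KO EphB2-negative cells Igtp led at 143 ± 28.8 CPM per kilobase, followed by Ifi47 (46.2 ± 6.00), Irgm1 (41.1 ± 8.84) and Irgm2 (24.7 ± 2.16). The effectors Tgtp2 (19.9 ± 6.06), Tgtp1 (17.5 ± 7.38) and Iigp1 (8.44 ± 1.58) came last.

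The WT order per length was another. Irgm1 led in WT EphB2-positive cells at 7.28 ± 1.54 CPM per kilobase (SD, n = 2), followed by Ifi47 at 4.18 ± 0.55 and Igtp at 1.95 ± 1.37, and Tgtp1, Tgtp2 and Iigp1 were under 0.2. In WT EphB2-negative cells Ifi47 (10.06 ± 4.04), Irgm1 (8.80 ± 1.22) and Igtp (8.18 ± 2.31) did not differ beyond their spread. Igtp thus moved from the third place per length in WT to the first in KO in both sorts, which follows from its fold changes above.

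**Figure D5:**
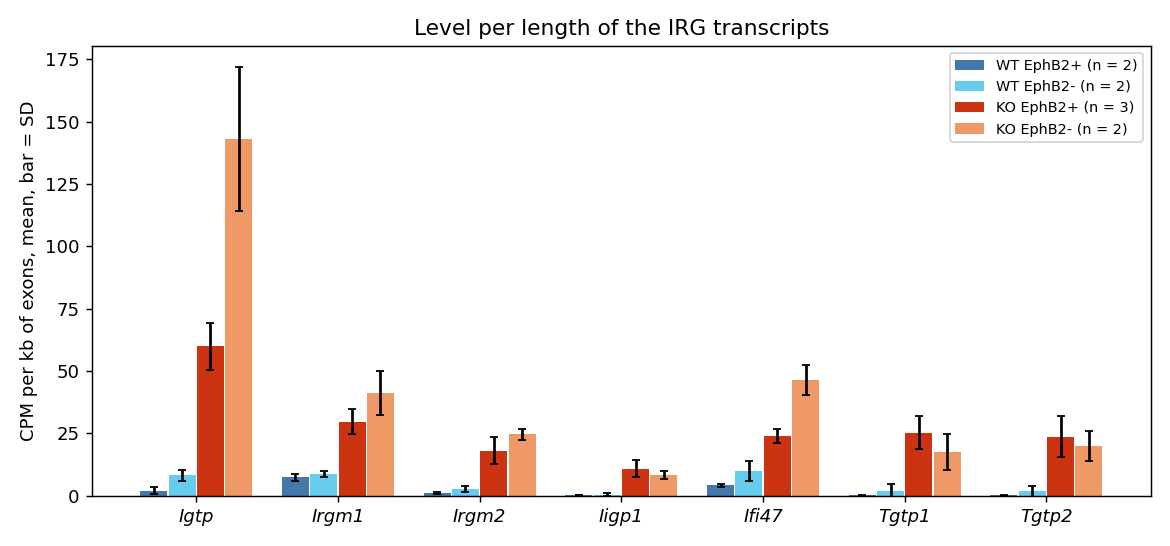
Level per length of each IRG gene in the 4 groups, as mean CPM per kilobase of exons with SD bars, on an axis from 0. Igtp is the highest bar in both KO groups (59.8 and 143), and Irgm1 and Ifi47 are the highest in the WT groups.

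Of 10 further genes listed as IRG family, 5 passed the filter on low counts. Gm12185, on that list, shares up to 223 exonic bases with Tgtp1 and is not fully independent of that member. Its log2 fold change in KO against WT EphB2-positive cells ran from 1.24 to 2.52 without 1 library. In KO against WT EphB2-positive cells 2 of the 5 rose (beside 7.01% of all genes), and in EphB2-negative cells 4 of the 5 (beside 13.7%), at list medians of 1.74 and 3.21 on the log2 scale. Apart from Irgq, no gene on the list had a WT mean above 3.80 CPM in either sort. Those that passed the filter did so through KO libraries, so the filter builds in part of these counts and medians. Gm12250 (Irgb10, an effector of the family that GENCODE M21 lists as a processed pseudogene, at chromosome 11, 58187739 to 58189012) had 3 and 0 reads in WT EphB2-positive cells and 52, 108 and 74 in KO. Its ratio was 57.2, with a counting interval of 19.3 to 279 (log2 fold change 5.69 ± 0.59, edgeR adjusted p = 4.5e-04), and in EphB2-negative cells it rose by 3.78 ± 0.47 (edgeR adjusted p = 7.7e-04). Gm5431 differed by sort: it was at 0 to 2.38 CPM in every EphB2-positive library, while in EphB2-negative cells it had 1 and 7 reads in WT and 29 and 39 in KO (log2 fold change 3.47 ± 0.84, edgeR adjusted p = 0.014). That call was lost without either KO EphB2-negative library. Irgq, a distant relative without the interferon response of the family, differed by -0.27 ± 0.21 in EphB2-positive (edgeR adjusted p = 0.44) and 0.30 ± 0.22 in EphB2-negative cells (edgeR adjusted p = 0.31).

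The ligand of the pathway was read in one sort only. Ifng had 0 reads in all 5 EphB2-positive libraries. In EphB2-negative libraries it had 0 and 13 reads in WT and 214 and 58 in KO. Both KO libraries lie above both WT libraries, and the difference was not called (4.79 ± 1.35 on the log2 scale, edgeR adjusted p = 0.071). Ifnb1, Ifna2, Ifna4, Ifnl2 and Ifnl3 had 0 reads in all 9 libraries, which at this depth allows up to 1.37 to 2.002 CPM in a library (3 reads). Of the 5 tested genes on the list of type I and III interferons and their receptors none was called in either sort by edgeR or DESeq2, with 1 of 5 in EphB2-positive and 2 of 5 in EphB2-negative cells at an unadjusted p under 0.05.

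Both receptor genes were read well in WT cells. Ifngr1 stood at 101 and 104 CPM in WT EphB2-positive cells and at 96.2, 105 and 124 CPM in KO, and was not called (0.08 ± 0.15 on the log2 scale, edgeR adjusted p = 0.78). Ifngr2 stood at 99.2 and 105 CPM in WT and 45.4, 48.1 and 55.5 CPM in KO, without overlap, and fell by 1.04 (SE 0.17, edgeR adjusted p = 0.0032). In EphB2-negative cells Ifngr1 rose by 0.74 ± 0.16 (edgeR adjusted p = 0.010; 0.085 without KO replicate 2) and Ifngr2 differed by 0.13 ± 0.17 (edgeR adjusted p = 0.60).

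Of 13 interferon gamma signalling genes, 4 rose, 1 fell and 8 were not called in EphB2-positive KO cells, with a median of 0.38. Of all genes 7.01% rose and 8.07% fell there. In EphB2-negative cells 5 rose, 1 fell and 7 were not called, with a median of 0.74, beside 13.7% and 16.2% of all genes. The transcription factors Irf1 and Irf8 were among those that rose. Irf1 rose by 0.92 ± 0.18 and 1.52 ± 0.19 in EphB2-positive and EphB2-negative cells (edgeR adjusted p = 0.0078 and 7.7e-04), the first call being lost without either WT EphB2-positive library. Irf8 rose by 1.22 ± 0.17 and 1.99 ± 0.18 (edgeR adjusted p = 0.0018 and 2.0e-04). Socs1, the feedback inhibitor of JAK kinases, had 0 and 2 reads in WT EphB2-positive cells and 29, 43 and 20 in KO, a ratio of 33.7 with a counting interval of 9.07 to 283 (edgeR adjusted p = 0.0033). In EphB2-negative cells Socs1 rose by 4.40 ± 0.70 (edgeR adjusted p = 0.0024).

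The guanylate-binding proteins (GBPs), large GTPases that act on the same vacuoles, had few reads in EphB2-positive cells. Of 10 tested, 1 rose in EphB2-positive cells (median 3.13), beside 7.01% of all genes, a share near the background. In EphB2-negative cells 6 rose (median 2.22), beside 13.7% of all genes. Gbp7 had 1.97 and 4.42 CPM in WT EphB2-positive cells and 25.7, 32.9 and 34.7 CPM in KO (log2 fold change 3.25 ± 0.62, edgeR adjusted p = 0.0095), a call lost without either WT EphB2-positive library (adjusted p = 0.053 and 0.089). Gbp2b differed by 4.63 ± 1.38 there (edgeR adjusted p = 0.054), Gbp3 by 3.40 ± 1.22 (edgeR adjusted p = 0.098) and Gbp2 by 3.06 ± 1.22 (edgeR adjusted p = 0.13), each with 3 reads or fewer in WT. DESeq2 called 3 of the 10 in EphB2-positive cells, and 5 had an unadjusted p under 0.05. In EphB2-negative cells Gbp2 rose by 3.74 ± 0.82 (edgeR adjusted p = 0.011) and Gbp2b by 3.26 ± 0.84 (edgeR adjusted p = 0.020), calls that were lost without either KO EphB2-negative library.

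Other genes known to be induced by interferon gamma rose in both sorts. Of 16 tested, 10 rose in EphB2-positive cells (median 2.32), beside 7.01% of all genes. In EphB2-negative cells 15 of 16 rose (median 2.40), beside 13.7% of all genes. Psmb8, an immunoproteasome subunit, had 32.6 and 43.7 CPM in WT EphB2-positive cells and 174, 187 and 191 CPM in KO (log2 fold change 2.27 ± 0.18, edgeR adjusted p = 1.4e-04). Psmb9, its partner subunit, rose by 1.74 ± 0.17 (edgeR adjusted p = 2.9e-04). Tap1, the peptide transporter of antigen presentation, rose by 2.40 ± 0.30 (edgeR adjusted p = 0.0011) and the transcription factor Batf2 by 3.22 ± 0.55 (edgeR adjusted p = 0.0046; 0.066 without WT EphB2-positive replicate 2).

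Of 19 genes listed as induced by type I interferon, 3 rose and 16 were not called in EphB2-positive cells (median 0.53), beside 7.01% of all genes called higher. In EphB2-negative cells 6 rose and 13 were not called (median 0.93), beside 13.7% called higher. The 3 were Bst2 (tetherin), Zbp1 (a sensor of nucleic acids) and Isg15 (a ubiquitin-like modifier), at log2 fold changes of 2.44 ± 0.56, 4.80 ± 1.05 and 2.71 ± 0.68 (edgeR adjusted p = 0.020, 0.021 and 0.024). Each of those calls was lost without either WT EphB2-positive library and without KO EphB2-positive replicate 2 or 3, and that of Isg15 also without KO replicate 1, with adjusted p up to 0.19. Cmpk2 stood lower in KO at -0.93 ± 0.30 (edgeR adjusted p = 0.068).

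The ATG conjugation genes are needed by IRG effectors to load onto their targets, and the list holds them with other autophagy genes and vacuole partners. In EphB2-positive cells 2 of 18 rose (median 0.05), beside 7.01% of all genes, a share near the background. In EphB2-negative cells 7 rose and 1 fell (median 0.36), beside 13.7% and 16.2%. Tbk1, a kinase of selective autophagy, rose by 0.79 ± 0.17 in EphB2-positive cells (edgeR adjusted p = 0.015), and Gabarapl1, an ATG8 homologue that takes part in placing IRGs, by 0.72 ± 0.20 (edgeR adjusted p = 0.036). Both calls were lost without either WT EphB2-positive library or KO EphB2-positive replicate 2, and that of Gabarapl1 also without the other KO libraries and with DESeq2 (adjusted p = 0.16). Ulk1 differed by -0.68 ± 0.24 (edgeR adjusted p = 0.091) and Ubqln1 by 0.42 ± 0.14 (edgeR adjusted p = 0.069).

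Of 15 NF-κB subunits and targets, 5 rose in EphB2-positive cells (median 0.73), beside 7.01% of all genes. In EphB2-negative cells 10 rose (median 1.58), beside 13.7% of all genes. Icam1, an adhesion receptor, had 5.40 and 7.40 CPM in WT EphB2-positive cells and 39.5, 40.6 and 64.7 CPM in KO (log2 fold change 2.89 ± 0.40, edgeR adjusted p = 0.0018). Bcl3, an IκB-family cofactor, rose by 1.53 ± 0.19 (edgeR adjusted p = 9.9e-04), and Birc3 by 0.88 ± 0.22 (edgeR adjusted p = 0.027). Tnf had 0 reads in both WT EphB2-positive libraries and 4, 11 and 19 in KO, at least 8.31-fold higher against 3 reads over the WT group (edgeR adjusted p = 0.019). Among EphB2-positive KO cells the median log2 fold change of the IRG members, 4.92, was thus above the medians of all 8 pathway lists, which ran from 0.05 to 3.13, a difference the choice of members builds in.

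Between the sorts of the KO, the pathway lists differed in how many genes were lower in EphB2-positive cells. Of the other IRG family genes 2 of 5 fell, of the autophagy list 10 of 18 (1 rose), of the NF-κB list 9 of 15 and of the type I and III interferon and receptor list 4 of 5. Of the GBPs 8 of 10 fell in EphB2-positive relative to EphB2-negative cells, of the genes induced by type I interferon 16 of 19, of the other interferon gamma induced genes 11 of 16 (1 rose) and of the interferon gamma signalling genes 10 of 13 (1 rose), beside 29.2% of all genes, against 2 of 7 members. The difference between these lists and the members was not tested. All 11 pan-leukocyte markers fell with them.

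The genes whose pattern over the 9 libraries was most like the mean of the 7 members were named by Pearson r of log2 CPM among 10772 genes. The libraries share genotype and sort and fall into a WT and a KO cluster, so a high r is shared by any gene with a large genotype difference. Gm12250 was first (r = 0.993), then Got1, a cytosolic aminotransferase (0.990), Arap2, a GTPase-activating protein (0.988), and Reg3g, an antimicrobial lectin (0.988). Lrg1 (0.984), Reg3b (0.984), Nucb2 (0.983) and Psmb8 (0.983) followed. Their Spearman rho ran from 0.80 for Reg3b to 0.983 for Gm12250, and a ranking by rho did not keep most of these genes (see the last section). Got1 stood at 29.0 ± 2.18 CPM in WT EphB2-positive, 47.5 ± 15.6 in WT EphB2-negative, 129 ± 22.5 in KO EphB2-positive and 168 ± 13.7 in KO EphB2-negative cells. Reg3g, by contrast, went from 26.3 ± 6.69 CPM in WT to 14405 ± 1189 CPM in KO EphB2-positive cells, so likeness of pattern does not mean likeness of size.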

How the data were processed

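Per the labels and the submitters' processing notes, poly(A) RNA was turned into amplified cDNA and sequenced, the notes list CASAVA 1.4, FastQC, Bowtie2, HTSeq and DESeq2, and the build is mm10. The authors deposited whole-number counts per gene for 24421 symbols in each of 9 libraries. The annotation, the use of strand and the rule for multi-mapping reads were not given in the sources used here. The 5 summary lines, among them reads in no gene (9.97% to 14.7%) and ambiguous reads (1.89% to 2.28%), stayed out of sums and tests.

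One edgeR model (version 4.0.16, R 4.3.3) took in every library. The 11577 genes kept by filterByExpr were normalized with TMM and tested by a robust two-sided quasi-likelihood F test on 4 group means, which leaves 5 residual degrees of freedom. Calls are at 0.05 after Benjamini-Hochberg adjustment across the tested genes. Groups follow the sample titles. At 1503972 to 2074076 reads per library, folds against groups with 0 reads use a floor of 3 reads over the group, and ratios on few reads carry a 95% interval. The workflow was tested on simulated data.

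The members and gene lists were chosen with earlier results of these data known. Named genes are the 7 members, Nfkbia, Ephb2, the first 4 of each pathway list by p-value in EphB2-positive KO against WT among genes of at least 10 CPM in a group, 8 interferon pathway genes named outright, and the 8 genes most like the members among those with a mean of at least 5 CPM. Some that the rule takes are left out of the text where a paragraph would only list them. The marker genes Ptprc, Lcp1, Tyrobp, Cd3e and Olfm4, the interferon genes at 0 reads and Tnf's floor were named after their values were seen. Positions come from GENCODE M21 and start-site windows from RefSeq (GRCm38.p6), and lengths are unions of annotated exons. Alternatives were DESeq2's size factors, no filter, a filter of 5 CPM in 2 libraries, DESeq2 1.42.0, only the compared groups, a covariate (the mean log2 CPM of the pan-leukocyte markers), blocks on replicate number or on a code in the file names, Tgtp1 and Tgtp2 summed, and leaving out each library. Those for single genes of the pathway lists were added after seeing the data. Plots were made in Python 3.11.15 with matplotlib 3.10.9.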

Additional observations from a re-analysis of the deposited data

Results flagged for a closer look

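Among the genes of the interferon receptor pathways, a genotype effect differed between the sorts for Ifngr2 and Tyk2, by the edgeR test of the difference itself. Ifngr2 fell by 1.04 on the log2 scale in EphB2-positive KO cells and differed by 0.13 in EphB2-negative cells, a difference of -1.17 ± 0.24 (adjusted p = 0.018). Its values without 1 library ran from -1.31 to -0.95, and the adjusted p passed 0.05 in 5 of those 9 fits, the highest being 0.092 without KO EphB2-negative replicate 2. Tyk2, a kinase of the type I and III interferon receptors, differed by -0.56 in EphB2-positive and 0.75 in EphB2-negative cells, neither of them called, a difference of -1.31 ± 0.37 (adjusted p = 0.047). Its adjusted p passed 0.05 in 7 of 9 fits without 1 library, up to 0.17, and was 0.059 with DESeq2.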

How the results depend on the processing

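In EphB2-positive KO against WT cells all 7 members were called under every alternative run (6 of 6 genes with Tgtp1 and Tgtp2 summed). The members were chosen on the KO against WT contrast, so nothing is read from these counts or from those in EphB2-negative cells that follow. In EphB2-negative cells 3 were called with the compared groups only (Igtp, Irgm1 and Irgm2), and 5 to 7 when 1 library was left out, the loss being Tgtp1 and Tgtp2 without KO EphB2-negative replicate 1. Between the KO sorts 1 to 3 were called without 1 library; Ifi47 was lost without KO EphB2-negative replicate 1 (adjusted p = 0.057). Irgm1 passed there with DESeq2's size factors and with the compared groups only (adjusted p = 0.043 and 0.015). The alternatives that did not leave out 1 library called 2 to 3 members there. With the leukocyte covariate Igtp and Ifi47 were not among them. Between the WT sorts the 1 call became 2 with no filter, 2 with the filter of 5 CPM, 3 with DESeq2, 0 with the compared groups only, 0 with the leukocyte covariate, 0 with the replicate block, 4 with the file-name code as a block, and 0 to 5 without 1 library. Deviations from the group means had r = 0.13 for the WT pairs, which share both number and code. In KO it was 0.038 and -0.071 for pairs of the same number, and 0.071 and 0.108 for pairs of the same code. What the code marks is not given in the labels. The replicate block changed no other call of a member.

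With the leukocyte covariate the KO sort difference turned to 0.016 for Irgm1, 1.00 for Irgm2 and 0.43 for Ifi47, and the WT one to 0.046 for Irgm1, 7.63 for Iigp1, 0.50 for Tgtp1 and 1.12 for Tgtp2. Without 1 library the KO sort difference of Tgtp2 ran from -0.072 (without KO EphB2-positive replicate 2) to 0.63, and the WT one of Iigp1 from -2.22 to 3.97 (without WT EphB2-negative replicate 2). For KO against WT without 1 library, Gm5431 in EphB2-positive cells ran from -0.058 to 4.48, Ifngr1 there from -0.032 to 0.17 (-0.032 with the replicate block) and Ifngr2 in EphB2-negative cells from -0.075 to 0.28 (-0.0023 with the covariate). In KO cells the leukocyte covariate nearly follows the sort, so the covariate fit cannot tell the sort from the covariate. Its spread within groups lies mainly between the WT EphB2-negative libraries. The causes were not tested.

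Of the 8 genes most like the members, 1 was shared with a ranking by Spearman rho. With the longest transcript as length, levels per kilobase moved to 64.5, 33.5 and 5.83 for Ifi47 in KO EphB2-negative, KO EphB2-positive and WT EphB2-positive cells, to 15.8, 20.3 and 0.315 for Iigp1 and to 62.3, 44.9 and 11.04 for Irgm1, with 13.3 for Irgm1 in WT EphB2-negative cells. Iigp1 in WT EphB2-positive cells was at 0.955 CPM with DESeq2's size factors. All genes called numbered 1746 in EphB2-positive KO against WT (568 to 3479 without 1 library, 1055 to 3734 otherwise), 3456 in EphB2-negative (1096 to 5834, 149 to 3467), 6428 between the KO sorts (4437 to 7697, 947 to 7290) and 513 between the WT sorts (0 to 5009, 1 to 1248). The members with few WT reads, Iigp1, Tgtp1 and Tgtp2, are limited by depth.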
